A study of Mus musculus with 10 samples.

Results

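The 9 genes Notch1, Notch2, Notch3, Jag1, Jag2, Dll1, Hes1, Hey1 and Heyl were followed by gene symbol through a count table of 55486 genes, and all 9 were in the table. They comprise 3 receptors of the Notch pathway, 3 of its ligands and 3 of its target genes. RNA had been sequenced from 10 libraries of normal fibroblasts (NFs) and tumor cells of the mouse mammary gland, grown for 7 days in 5 gels of collagen and basement membrane extract. NFs came from 8-week-old female mTmG mice, which carry a membrane reporter that is red (Tomato) until Cre recombinase turns it green (GFP). Several mice were pooled for a sort, and NFs were taken by flow cytometry as cells without (CD26-) or with (CD26+) the surface protein CD26. CD26+ NFs had been given a Cre adenovirus to turn them green, whereas CD26- NFs had not, so the subset and the exposure to virus cannot be told apart. Both subsets were mixed in equal parts and recovered from the gel by color. Tumor cells were 2 lines, 13-MCB-17 and 10-SJK-221, from WapCre;Cdh1F/F mice, a model of invasive lobular carcinoma. In these mice Cre is driven by a promoter active in milk-producing mammary epithelium. Gel 1 held NFs alone and gave 1 library of each subset, gels 2 and 3 held 1 tumor line each, and gels 4 and 5 held NFs with line 13-MCB-17 or 10-SJK-221 and gave 1 library of each of the 3 cell populations. Only 1 gel held NFs alone, so the difference between co-culture and NFs alone cannot be told apart from a difference of that gel, and p-values measure the spread between these libraries, which may be technical.

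Notch receptors are transmembrane proteins that are activated by ligands of the Jagged and Delta-like families on a neighboring cell. After ligand binding the receptor is cut, and its intracellular part moves to the nucleus and joins the DNA-binding protein RBPJ to switch on targets, among them transcriptional repressors of the Hes and Hey families. In connective tissue and blood vessels the pathway is known for the exchange of signals between neighboring cells, and Notch3 and Heyl are known from the mural cells (pericytes and smooth muscle) that surround vessels.

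Levels are given as CPM, the read count of a gene scaled by the total count of its library. Libraries held 14142334 to 18408940 counts, so that 3 counts, the most that an observed 0 allows, correspond to 0.163 to 0.212 CPM (counting error only). The summed level of 10 fibroblast markers was 76373 to 83233 CPM for NFs alone, 31806 to 53978 CPM for NFs in co-culture and 2135 to 7495 CPM in tumor cells, where the marker Fbln2 carried the sum (2096 to 7316 CPM) and the other 9 summed to 38.7 to 179 CPM. The 10 epithelial markers summed to 4218 to 5606 CPM in tumor cells, 0.807 to 1.05 CPM for NFs alone and 120 to 324 CPM for NFs in co-culture. As the median over these epithelial markers, co-cultured NF libraries held 1.97% to 5.03% of the level of the tumor library of their gel. Dpp4, which encodes CD26, was detected at 0.281 to 0.771 CPM in the CD26+ subset and at 0 to 0.0575 CPM in the CD26- subset, on 12 counts or fewer. In bulk libraries, fewer cells of a type and less RNA per cell cannot be told apart.

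The receptors Notch1 and Notch3 had the most similar pattern of any pair of the 9 genes across the 6 NF libraries (r = 0.980, a description over libraries that share gels), so the sequence before their start sites is shown. Both windows cover the 250 bases before the RefSeq start, read 5′ to 3′ on the minus strand of GRCm38.p6. The Notch1 window (chr2:26503823-26504072) lies inside the annotated span of the gene, and the Notch3 window (chr17:32166891-32167140) lies just outside it.
Notch1: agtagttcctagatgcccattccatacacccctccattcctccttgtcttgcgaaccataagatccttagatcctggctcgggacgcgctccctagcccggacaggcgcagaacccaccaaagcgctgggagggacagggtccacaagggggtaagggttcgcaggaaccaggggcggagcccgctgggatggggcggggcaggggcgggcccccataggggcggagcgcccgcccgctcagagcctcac
Notch3: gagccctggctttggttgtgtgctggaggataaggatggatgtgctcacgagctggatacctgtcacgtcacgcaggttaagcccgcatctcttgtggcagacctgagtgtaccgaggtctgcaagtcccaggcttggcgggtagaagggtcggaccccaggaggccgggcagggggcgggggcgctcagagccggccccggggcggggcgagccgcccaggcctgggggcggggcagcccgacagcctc
G and C made up 66% of the Notch1 window and 68.8% of the Notch3 window. The letters TGGGAA, the core of the site bound by RBPJ, were searched on both strands and were in neither window, and hence nothing is in capitals. RefSeq windows were at hand for 6 of the 9 genes (Notch1, Notch2, Notch3, Jag1, Jag2 and Dll1), and these letters were absent from all of them, against 21.6% of 32817 mouse promoter windows of the same length that held them. A missing match says only that these letters are not in the window.

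The 3 receptors differed in how they were distributed over the cell populations. Notch1 (ENSMUSG00000026923, chromosome 2, 26457903 to 26516663, GRCm38) had 44.0, 103 and 127 CPM in the CD26- subset (libraries in the order of gels 1, 4 and 5, as throughout) and 72.5, 77.7 and 84.9 CPM in the CD26+ subset. In tumor cells of gels 2, 3, 4 and 5, Notch1 had 48.4, 45.6, 58.6 and 51.3 CPM, so all NF libraries but the CD26- NFs of gel 1 were above all tumor cells. Notch2 (ENSMUSG00000027878, chromosome 3, 98013527 to 98150361) had 192, 200.4 and 183 CPM in the CD26- subset, 119, 169 and 132 CPM in the CD26+ subset and 115, 103, 124 and 146 CPM in tumor cells. It was the most even of the receptors, and CD26+ NFs overlapped tumor cells. Notch3 (ENSMUSG00000038146, chromosome 17, 32120820 to 32166852) had 28.3, 188 and 271 CPM in the CD26- subset and 68.9, 125 and 141 CPM in the CD26+ subset. Tumor cells had 1.14, 1.85, 1.19 and 0.627 CPM of Notch3 on 11 to 29 counts, far under every NF library. Exons of the receptors overlap another annotated gene over 9.76% (Notch1), 5.02% (Notch2) and 6.03% (Notch3) of their length, and it is not stated whether strand was used in counting.

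Of the ligands, Dll1 and Jag2 were lowest in NFs alone and highest in tumor cells, while Jag1 was well detected in both. Jag1 (ENSMUSG00000027276, chromosome 2, 137081456 to 137116644) had 53.4, 72.6 and 119.99 CPM in the CD26- subset and 60.5, 66.7 and 75.9 CPM in the CD26+ subset. Tumor cells had 79.6 and 99.9 CPM of Jag1 alone and 162 and 245 CPM in co-culture, where they were above all NF libraries. Jag2 (ENSMUSG00000002799, chromosome 12, 112907819 to 112929776) had 0.248, 2.91 and 1.84 CPM in the CD26- subset, 0.983, 7.00 and 3.61 CPM in the CD26+ subset and 7.66, 8.14, 11.3 and 11.6 CPM in tumor cells. Its NFs alone rested on 4 and 14 counts. Dll1 (ENSMUSG00000014773, chromosome 17, 15367354 to 15376872) had 2.73, 11.6 and 8.63 CPM in the CD26- subset, 3.65, 23.3 and 21.4 CPM in the CD26+ subset and 57.5, 83.6, 70.8 and 87.4 CPM in tumor cells, so no NF library reached the tumor cells. An antisense gene overlaps 20.5% of the exons of Dll1, whereas no other gene overlaps the exons of Jag1 or Jag2.

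Among the targets, Hes1 was high in every library and Hey1 and Heyl were low or undetected in tumor cells. Hes1 (ENSMUSG00000022528, chromosome 16, 30064384 to 30067796) had 157, 144 and 156 CPM in the CD26- subset, 216, 147 and 196 CPM in the CD26+ subset and 115, 99.7, 183 and 166 CPM in tumor cells. Hey1 (ENSMUSG00000040289, chromosome 3, 8663359 to 8667256) was low throughout, with 0.807, 4.00 and 7.71 CPM in the CD26- subset, 1.82, 2.70 and 6.22 CPM in the CD26+ subset and 0 to 0.913 CPM in tumor cells. Heyl (ENSMUSG00000032744, chromosome 4, 123233556 to 123249875) had 0.745 CPM in the CD26- subset alone and 1.26 CPM in the CD26+ subset alone, on 12 and 18 counts. In co-culture it had 66.2 and 140.0 CPM in the CD26- subset and 31.0 and 57.2 CPM in the CD26+ subset, on 483 to 2433 counts. Heyl had 1 count over the 4 tumor libraries, so it separated co-cultured NFs from all other libraries. No other gene overlaps the exons of the 3 targets.

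**Figure D1:**
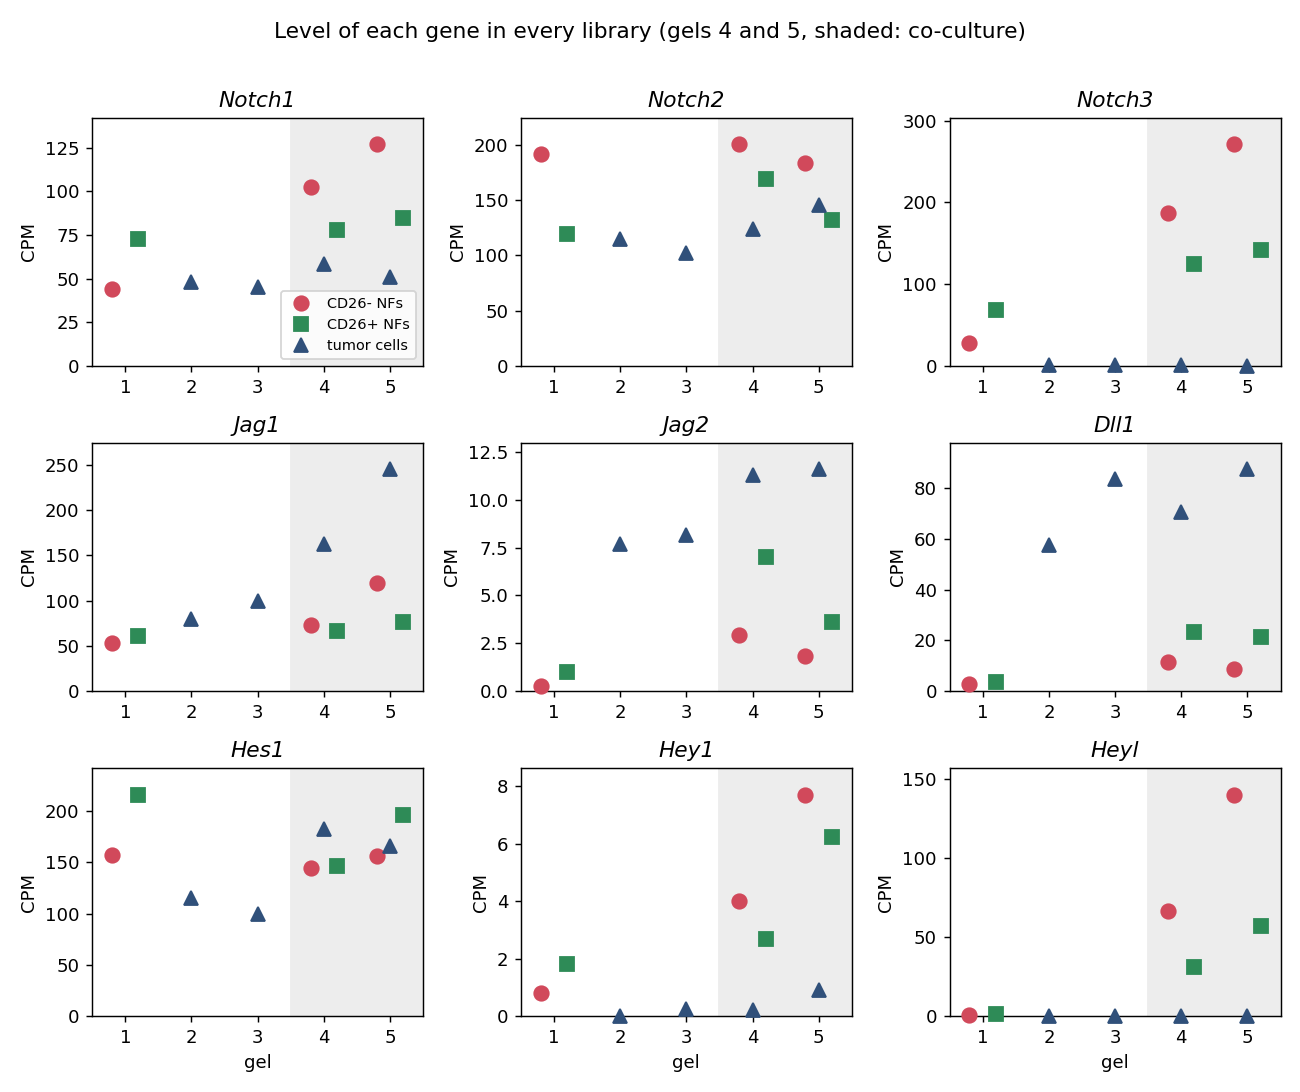
Level in CPM (vertical axes, from 0, a scale for each gene) of the 9 genes in every library by gel (horizontal axes), with CD26- NFs as circles, CD26+ NFs as squares and tumor cells as triangles; 1 point is 1 library and the co-cultures of gels 4 and 5 are shaded. Heyl rose from at most 1.26 CPM in NFs alone to at least 31.0 CPM in co-cultured NFs, and Dll1 had at most 23.3 CPM in NFs against at least 57.5 CPM in tumor cells.

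To compare levels between genes, CPM were divided by the exon length in kilobases (CPM per kb). Hes1 was first in each class of libraries, with means of 91.7 CPM per kb in NFs alone, 79.0 in co-cultured NFs, 52.8 in tumor cells alone and 85.5 in co-cultured tumor cells, and its libraries did not overlap those of the next gene. In NFs alone the order was Hes1, Notch2 (14.4 CPM per kb), Jag1 (9.77), Notch3 (6.01), Notch1 (4.09), Dll1 (0.756), Hey1 (0.403), Heyl (0.196) and Jag2 (0.0884). Only the neighbors Notch3 and Notch1 overlapped there, each on 2 libraries. In co-cultured NFs, Notch3 was second (22.4 CPM per kb) and was followed by Notch2 (15.9), Heyl (14.4), Jag1 (14.4), Notch1 (6.89), Dll1 (3.84), Hey1 (1.58) and Jag2 (0.551). From Notch3 to Jag1 each gene overlapped its next neighbor, as did Notch1 to Jag2, so these neighbors did not differ beyond the spread of the libraries. Tumor cells alone had Dll1 (16.7 CPM per kb) and Jag1 (15.4) after Hes1, with overlapping libraries, then Notch2 (10.1), Notch1 (3.30), Jag2 (1.13), Notch3 (0.185), Hey1 (0.0390) and Heyl at 0. In co-cultured tumor cells Jag1 (35.0 CPM per kb) was above Dll1 (18.7) without overlap, and Notch2 (12.5), Notch1 (3.86) and Jag2 (1.64) kept their order.

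NFs and tumor cells were compared first as grown alone and then in co-culture, in a fit of all 10 libraries in 6 groups (edgeR quasi-likelihood F test, adjusted over 17048 genes, threshold 0.05). Grown alone, NFs had more Notch3 (32.5-fold by the ratio of mean CPM), Hey1 (10.3-fold, on 4 tumor counts), Hes1 (1.74-fold) and Notch2 (1.43-fold), and tumor cells had more Dll1 (22.1-fold) and Jag2 (12.8-fold). Heyl was at least 5.26-fold higher in NFs, computed against 3 counts in a tumor library. These 7 of 9 genes passed the threshold, 5 higher and 2 lower in NFs, where 55.5% of all genes tested did (28.4% higher and 27.1% lower). Heyl and Hey1 reached the level of the filter on low counts (0.613 CPM) in NFs alone but in neither tumor library, so their place in this count follows in part from the filter. On the log2 scale (NFs over tumor cells) the differences were 5.03 for Notch3 (SE 0.345, adjusted p = 7.42e-06), -4.34 for Dll1 (SE 0.249, adjusted p = 2.74e-06), -3.84 for Jag2 (SE 0.436, adjusted p = 0.000134) and 0.91 for Hes1 (SE 0.201, adjusted p = 0.00538). Notch1 (log2 difference 0.39, SE 0.180, adjusted p = 0.0943) and Jag1 (-0.52, SE 0.286, adjusted p = 0.152) did not pass. The call of Notch2 (0.61, SE 0.166, adjusted p = 0.0143) ended without gel 3 (0.49), gel 4 (0.61) or gel 5 (0.63), and that of Hey1 (3.40, SE 1.11, adjusted p = 0.0299) without gel 2 (2.38), gel 4 (3.40) or gel 5 (3.41).

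In co-culture, NFs had more of all 3 receptors and of Hey1 and Heyl, and tumor cells had more of all 3 ligands. Notch3 was 199.7-fold higher in NFs (log2 difference 7.78, SE 0.374, adjusted p = 1.54e-06). Heyl was 2592-fold higher by the ratio of mean CPM in NFs to the pooled level of 1 tumor count, with an exact Poisson 95% interval of 465 to 102373 for that count. Tumor cells had 4.88-fold more Dll1 (log2 difference -2.20, SE 0.175, adjusted p = 1.89e-05), 2.98-fold more Jag2 (-1.49, SE 0.286, adjusted p = 0.0027) and 2.43-fold more Jag1 (-1.09, SE 0.238, adjusted p = 0.00539). Notch1 was 1.78-fold, Notch2 1.27-fold and Hey1 9.06-fold higher in NFs. Hes1 gave a log2 difference of 0.08 (SE 0.173, adjusted p = 0.71), so that 8 of 9 genes passed, 5 higher and 3 lower in NFs, where 51.8% of all genes did (27.7% higher and 24.2% lower). Heyl reached the level of the filter in no tumor library. Without gel 4, 5 genes passed, and Notch2 (0.35), Jag2 (-1.91) and Hey1 (3.17) did not. Without gel 5, the 3 genes Notch3, Dll1 and Heyl passed, while Notch1 (0.76), Notch2 (0.73), Jag1 (-1.07), Jag2 (-1.17) and Hey1 (3.97) kept their direction and missed the threshold.

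**Figure D2:**
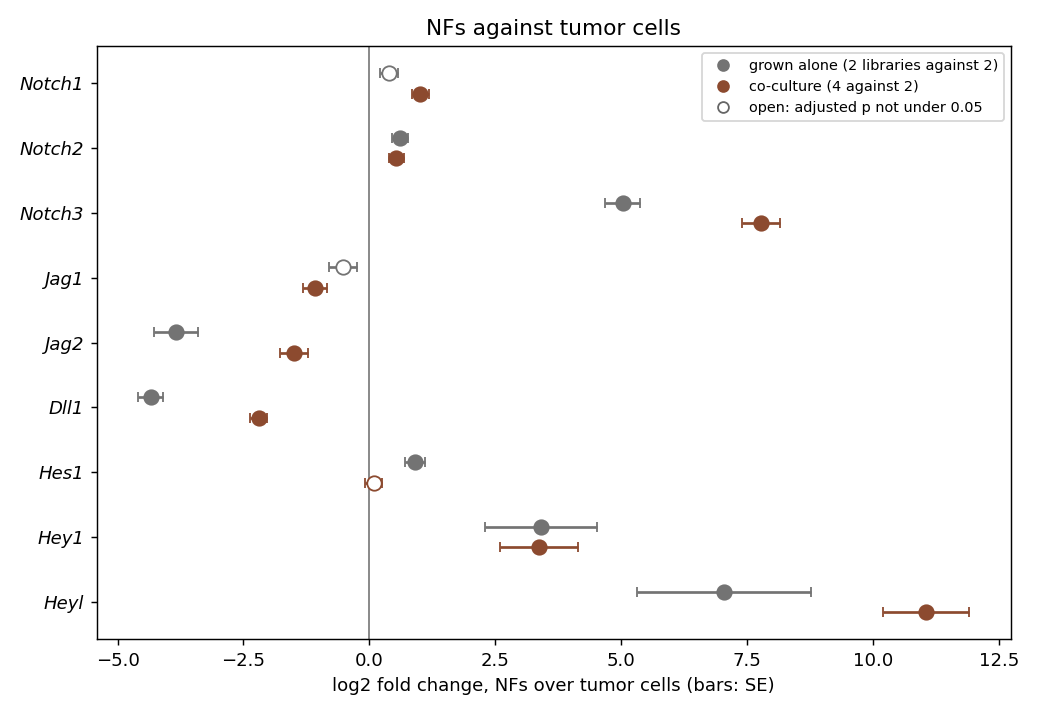
Log2 fold change of NFs over tumor cells (horizontal axis, bars: SE) for the 9 genes grown alone (gray, 2 libraries against 2) and in co-culture (brown, 4 against 2); open points have an adjusted p not under 0.05. The ligands Dll1 and Jag2 lie left of 0 at -4.34 and -3.84 alone and at -2.20 and -1.49 in co-culture, and Notch3 moves from 5.03 to 7.78; fitted values of Heyl depend on the prior count, since tumor cells had 1 count.

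The response of NFs to tumor cells was then compared over both subsets (4 co-cultured libraries against 2 from gel 1, with subset as a term). Of the receptors Notch3 and Notch1 rose, of the ligands Jag2 and Dll1, and of the targets Heyl and Hey1. These 6 of 9 genes passed the threshold upward and none downward, where 25.9% of 15013 genes rose and 22.9% fell (48.8% in all). The median log2 fold change was 1.90 over the 9 genes and 0.02 over all genes tested. By the ratio of mean CPM, Heyl was 73.3-fold, Jag2 6.24-fold, Dll1 5.08-fold, Hey1 3.92-fold, Notch3 3.73-fold and Notch1 1.68-fold higher in co-cultured NFs, and for each of the 6 every co-cultured library was above both NF libraries grown alone.

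The change of Heyl was the largest of the 9 (log2 fold change 6.19, SE 0.595, adjusted p = 3.23e-05), and it was 5.16 or more under each of the 9 alternative settings run. Jag2 rose by 2.74 (SE 0.486, adjusted p = 0.00139), Dll1 by 2.30 (SE 0.242, adjusted p = 5.51e-05) and Notch3 by 1.90 (SE 0.426, adjusted p = 0.00499). Notch3 gave 3.09 within CD26- NFs (adjusted p = 3.84e-06) and 0.99 within CD26+ NFs (adjusted p = 0.0111). These settings were added after the values were seen and are contrasts in a fit of all 6 NF libraries in 4 groups, where each subset grown alone is 1 library and the spread comes from the 4 co-cultured libraries. With the added criterion of an absolute log2 fold change over 2, Notch3 and Notch1 were not called and the other 4 genes were. Hey1 (2.03, SE 0.547, adjusted p = 0.0126) and Notch1 (0.78, SE 0.260, adjusted p = 0.0316) lost the call without gel 5 (1.40 and 0.67) and within CD26+ NFs (1.32 and 0.20). Jag1 did not pass (0.59, SE 0.235, adjusted p = 0.0634), but it did without gel 4 (0.83, adjusted p = 0.0137) and in the added setting within CD26- NFs (0.93, adjusted p = 0.0279). Notch2 (0.21, SE 0.144, adjusted p = 0.25) and Hes1 (-0.15, SE 0.159, adjusted p = 0.45) did not pass, and their co-cultured libraries overlapped those grown alone.

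The summed levels of markers of other cells moved with these changes. At the median shares given above, RNA of tumor cells would supply 8.82% to 22.3% of the Dll1 level of a co-cultured NF library, 4.68% to 16.2% of Jag2, 4.41% to 16.2% of Jag1 and at most 0.0275% of Notch3 and 0.00529% of Heyl. After this share was subtracted, the same 6 genes passed. The share depended on the marker, and it was highest by Krt19, at 9.79% and 12.7% in gel 4 and 9.19% and 17.7% in gel 5 (CD26- and CD26+ NFs), against 3.19% to 7.77% by the second highest marker. At the share by Krt19, tumor RNA would supply 38.8% to 93.0% of Dll1, 20.6% to 57.8% of Jag2 and 18.8% to 57.2% of Jag1. Which marker's share holds for these genes was not tested. When that highest share was subtracted, a setting added after the values were seen, Dll1 missed the threshold (0.91, adjusted p = 0.372) and the other 5 genes passed. All 8 mural markers were above 3 counts in NFs of both cultures, and their sum ran from 49.4 to 69.2 CPM without tumor cells and from 102 to 319 CPM with them. Cspg4 rose from 2.48 and 5.97 CPM to 59.7 to 175 CPM and Mcam from 2.61 and 3.30 CPM to 16.3 to 104 CPM, whereas the other 6 mural markers summed to 64.1 and 40.1 CPM alone and 25.9 to 40.2 CPM in co-culture, among them Rgs5 with 9.25 and 6.11 CPM alone and 1.88 to 6.22 CPM in co-culture. Endothelial markers summed to 5.40 to 11.4 CPM alone and 19.3 to 37.0 CPM in co-culture. Pecam1 had 0.310 and 1.26 CPM alone and 5.93 to 9.76 CPM in co-culture, Esam 0.373 and 1.47 CPM against 9.83 to 11.9 CPM and Cdh5 0.186 and 0.211 CPM against 1.04 to 4.69 CPM, while Tek had 3.23 and 4.84 CPM against 0.0575 to 1.98 CPM and Emcn was at 0 in each co-cultured NF library. Immune markers summed to 12.2 to 16.6 CPM alone and 34.2 to 68.5 CPM in co-culture. Cd68 had 3.48 and 6.53 CPM alone and 19.6 to 53.5 CPM in co-culture, Csf1r 1.86 and 2.81 CPM against 7.42 to 13.5 CPM and Itgam 0.124 and 0 CPM against 0.849 to 1.61 CPM, while Lyz2 had 6.02 and 4.07 CPM against 0.173 to 0.964 CPM. Ptprc had at most 0.0575 CPM in co-cultured NFs and Adgre1 0 counts. The part of mural, endothelial and immune markers in these results was not tested.

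**Figure D3:**
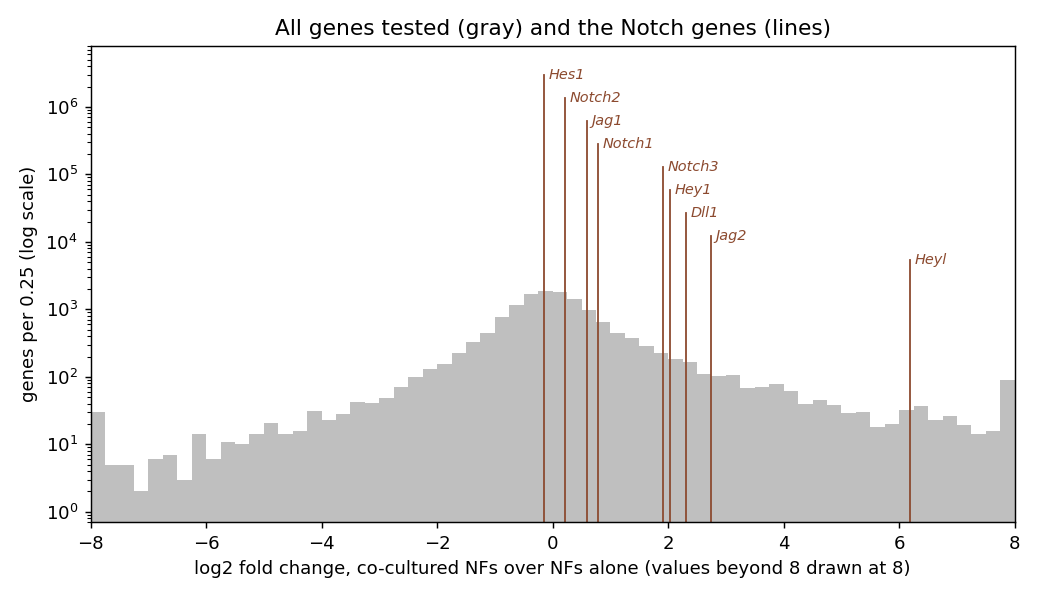
Number of genes (vertical axis, log scale) by log2 fold change of co-cultured NFs over NFs alone (horizontal axis) for all 15013 genes tested in gray, with the 9 genes as brown lines whose height carries no value. Hes1 and Notch2 lie near the center at -0.15 and 0.21, Notch3, Hey1, Dll1 and Jag2 between 1.90 and 2.74, and Heyl at 6.19.

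To ask whether the subsets differ, CD26+ and CD26- NFs of gels 1, 4 and 5 were compared with culture as a term. Notch2 was lower in CD26+ NFs (log2 fold change -0.62, SE 0.135, adjusted p = 0.0285), at 0.621, 0.845 and 0.718 times the CD26- NFs of gels 1, 4 and 5. Dll1 had the higher level in CD26+ cells (0.81, SE 0.202, adjusted p = 0.0428), at 1.34, 2.01 and 2.47 times. These 2 of 9 genes passed, 1 in each direction, where 7.53% of all genes tested did (3.93% higher and 3.6% lower in CD26+ NFs). Heyl (-1.19, SE 0.405, adjusted p = 0.105) and Jag2 (1.14, SE 0.392, adjusted p = 0.109) had larger values but missed the threshold, and Heyl passed with gel as a block (-1.17, adjusted p = 0.0225). Notch1, Notch3, Jag1, Hes1 and Hey1 gave values between -0.39 and 0.12. Dll1 missed the threshold with no filter beyond 1 count (0.78, adjusted p = 0.0529) and after subtraction of the tumor RNA share at its median (0.85, adjusted p = 0.0606), and both missed it at the highest marker share (Dll1 1.37, adjusted p = 0.305; Notch2 -0.64, adjusted p = 0.0767). Neither call was kept in every subset of gels. Dll1 missed the threshold without gel 4 (0.79, adjusted p = 0.131) and without gel 5 (0.62, adjusted p = 0.451), and Notch2 without gel 1 (-0.51, adjusted p = 0.0989) and without gel 5 (-0.60, adjusted p = 0.284). Without gel 1, which leaves the co-cultures, 6.78% of 14410 genes passed (4.15% higher and 2.63% lower in CD26+ NFs). There Notch3 (-0.96, adjusted p = 0.0178), Notch1 (-0.67, adjusted p = 0.0463) and Heyl (-1.40, adjusted p = 0.0331) were lower in CD26+ NFs and Dll1 was higher (0.98, adjusted p = 0.0135).

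Notch3 changed its order between the subsets with the culture. Grown alone, CD26+ NFs had 2.44 times the Notch3 of CD26- NFs, and in gels 4 and 5 they had 0.666 and 0.522 times. CD26- NFs rose 6.64-fold and 9.59-fold over gel 1 and CD26+ NFs 1.81-fold and 2.05-fold. The interaction of subset and culture was -2.10 on the log2 scale (SE 0.366, adjusted p = 0.0272), and Notch3 was the only one of the 9 that passed, where 0.376% of 16231 genes did (0.228% upward and 0.148% downward). The observed order of the subsets also differed between gel 1 and the co-cultures for 4 other genes that did not pass. In gel 1 it rested on few counts for Heyl (18 in CD26+ and 12 in CD26- NFs) and Hey1 (26 and 13). For Jag1 the counts there were close (862 and 860). Notch1 had 1.65 times in gel 1 and 0.757 and 0.669 times in gels 4 and 5 (interaction -1.25, SE 0.318, adjusted p = 0.152), and Heyl 1.70, 0.469 and 0.409 times (-2.02, SE 1.04, adjusted p = 0.712). Hey1 had 2.26, 0.675 and 0.807 times (-1.60, SE 0.901, adjusted p = 0.758) and Jag1 1.13, 0.919 and 0.633 times (-0.65, SE 0.399, adjusted p = 0.796). The interaction was 0.31 for Notch2, 0.70 for Dll1, -0.29 for Hes1 and -0.82 for Jag2, and none of these passed. With gel as a block, Notch3 (-2.08, adjusted p = 3.12e-08), Notch1 (-1.24, adjusted p = 0.00454) and Heyl (-1.98, adjusted p = 0.0475) passed. The call of Notch3 ended when no filter beyond 1 count was used (-2.14, adjusted p = 0.0947) and when the share of the other cell type was subtracted (-2.07, adjusted p = 0.0965). Each subset had 1 library grown alone, so the spread in this test comes from the co-cultures of gels 4 and 5, which held different tumor lines, and the spread of NFs alone was not measured. The fit with gel as a block has only 1 residual degree of freedom. Of the 8 mural markers, Cspg4 and Mcam had the same order of the subsets as Notch3 in each gel, and the other 6 did not, with Rgs5, Des and Myh11 in the opposite order in each gel. Cspg4 had 2.48, 148 and 175 CPM in the CD26- subset and 5.97, 59.7 and 72.8 CPM in the CD26+ subset, and Mcam had 2.61, 47.6 and 104 CPM against 3.30, 16.3 and 38.5 CPM. Their part in the result of Notch3 was not tested.

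In tumor cells, co-culture with NFs was compared with growth alone in both lines. Jag1 rose by 1.14 on the log2 scale (SE 0.112, adjusted p = 0.00038), 2.04-fold in line 13-MCB-17 and 2.45-fold in line 10-SJK-221. Hes1 rose by 0.67 (SE 0.0993, adjusted p = 0.00231), 1.58-fold and 1.66-fold in the same lines. These 2 of 7 genes tested passed upward, where 10.8% of 13197 genes rose and 11.5% fell (22.3% in all). Jag2 gave 0.51 (SE 0.182, adjusted p = 0.0806), Notch2 0.28, Notch1 0.20 and Dll1 0.16, and Notch3 gave -0.73 (SE 0.493, adjusted p = 0.342). Hey1 and Heyl did not reach the filter on low counts. The fit has 1 residual degree of freedom, and without the term for line neither Jag1 (adjusted p = 0.126) nor Hes1 (adjusted p = 0.164) passed. The 8 immediate-early genes, which respond within minutes to stimulation or handling, summed to 5808 to 7768 CPM in tumor cells alone and 8973 to 10844 CPM in co-cultured tumor cells, and Fbln2, 1 of the 10 fibroblast markers, had 2255 and 2096 CPM alone and 7316 and 6231 CPM in co-culture. Their part in these results was not tested. The share of NF RNA, taken as the median over fibroblast markers, was 0.109% and 0.13% in co-cultured tumor cells, which would supply at most 0.052% of Jag1, 0.138% of Hes1 and 42.7% of the low Notch3 level.

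Between the lines, 0 of 7 genes passed (edgeR, with 3 genes at an unadjusted p under 0.05, and 0 by DESeq2), where 14.5% of all genes did (5.93% higher and 8.54% lower in 10-SJK-221). The largest values were those of Jag1 (0.39, SE 0.111, adjusted p = 0.0515) and Dll1 (0.35, SE 0.103, adjusted p = 0.0592), both higher in line 10-SJK-221 in both cultures. Both passed when no filter beyond 1 count was used. The other values were -0.25 for Hes1, -0.22 for Notch1, -0.08 for Notch3, -0.04 for Notch2 and -0.01 for Jag2, and Hey1 and Heyl were not tested.

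**Figure D4:**
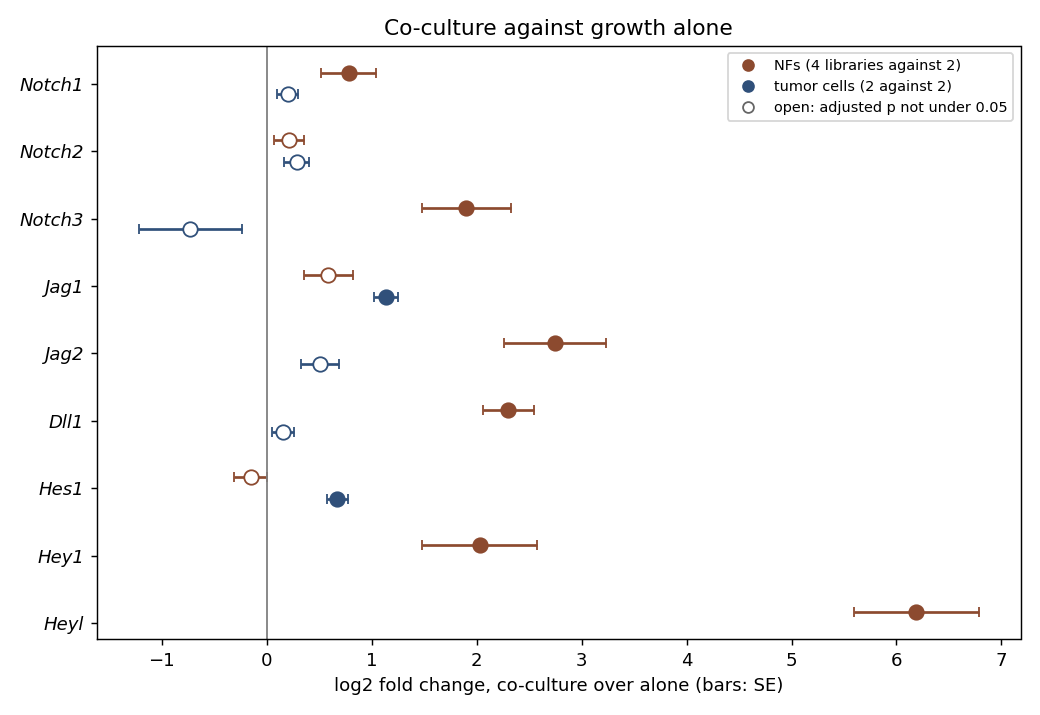
Log2 fold change of co-culture over growth alone (horizontal axis, bars: SE) in NFs (brown, 4 libraries against 2) and tumor cells (blue, 2 against 2); open points have an adjusted p not under 0.05, and Hey1 and Heyl were not tested in tumor cells. Notch3, Jag2 and Dll1 lie at 1.90, 2.74 and 2.30 in NFs and at -0.73, 0.51 and 0.16 in tumor cells, and Jag1 and Hes1 pass the threshold in tumor cells at 1.14 and 0.67.

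Whether NFs and tumor cells differ in their response was tested as an interaction of cell type and culture in the fit of all 10 libraries. The response of NFs exceeded that of tumor cells for Notch3 by 2.75 (SE 0.482, adjusted p = 0.00602), for Jag2 by 2.35 (SE 0.534, adjusted p = 0.0181) and for Dll1 by 2.14 (SE 0.299, adjusted p = 0.00225). These 3 of 9 genes passed, all upward, where 20.2% of all genes tested did (12% upward and 8.15% downward). When the highest marker share of tumor RNA was subtracted from NFs, Jag2 (1.82, adjusted p = 0.169) and Dll1 (0.77, adjusted p = 0.643) missed the threshold and Notch3 passed (2.96). Hes1, which rose in tumor cells, gave -0.82 (SE 0.263, adjusted p = 0.0604) and passed by DESeq2 (-0.80, adjusted p = 0.0424) and when no filter beyond 1 count was used (-0.84, adjusted p = 0.0294). Jag1 gave -0.56 (SE 0.375, adjusted p = 0.33), Notch1 0.62 (SE 0.239, adjusted p = 0.104) and Notch2 -0.08. Hey1 gave -0.04 (SE 0.530) on 0 and 4 counts in tumor cells alone. The value of Hey1 ran from -3.99 to 0.98 over the alternative settings, so its difference of responses is not settled. Heyl could not be estimated (SE 38.2), with 1 count in tumor cells. Without gel 4 or without gel 5, which leaves co-cultured groups of 1 library each, 0 genes of the whole table passed (edgeR, with 4 of the 9 at an unadjusted p under 0.05 either way), and the 3 values were 3.50, 1.94 and 1.91 without gel 4 and 2.11, 2.65 and 2.37 without gel 5 for Notch3, Jag2 and Dll1.

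The remainder of the pathway was described with a list of 48 other genes. They cover receptors and ligands, cleavage, glycosylation, the nuclear complex, trafficking and further Hes and Hey genes with Nrarp. In NFs, 12 of 44 genes tested rose in co-culture and 8 fell, where 25.9% of all genes tested rose and 22.9% fell, and their median log2 fold change was 0.22 against 0.02 over all genes. Rbpj, the DNA-binding partner of the receptors, was among those that rose (1.90, SE 0.157, adjusted p = 1.29e-05), from 64.7 and 45.6 CPM to 142 to 237 CPM. Notch4, the fourth receptor, rose by 2.04 (SE 0.244, adjusted p = 0.000126), from 3.91 and 4.14 CPM to between 14 and 21.1 CPM. Rbpj and Notch4 were named after their values were seen. By the rule of largest change, Dll4, Hes7 and Dtx1 were named among the genes that rose, all of them low. Dll4, a further Delta-like ligand, and Hes7, a further Hes gene, had 0 counts in both NF libraries grown alone and 9 to 22 and 4 to 14 counts in co-cultured NFs, at least 4.42-fold and 3.07-fold higher against 3 counts in a library. Dtx1, a Deltex ubiquitin ligase, had 1 and 3 counts alone and 9 to 25 counts in co-culture. Of the 12 genes that rose, 4 (Dll4, Hes7, Dtx1 and Neurl3, the last named after its values were seen) reached the level of the filter on low counts, 0.631 CPM here, in co-cultured libraries but in neither library grown alone, so they had to be higher in co-culture to be tested. In co-cultured NFs, tumor RNA would supply 13.7% to 31.1% of Dll4 at the median share and 67.8% to 109.6% at the share by Krt19. For Rbpj it would supply at most 2.59% and 9.13%, and for Notch4 at most 3.84% and 13.5%, at the same shares.

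Among the pathway genes that fell in NFs, Dlk1, a secreted and membrane-bound relative of the Delta ligands, fell by 4.32 (SE 0.343, adjusted p = 1.04e-05), from 10.5 and 9.62 CPM to 0.288 to 0.778 CPM. Kat2b, a histone acetyltransferase, fell by 1.67 (SE 0.166, adjusted p = 3.94e-05) and Maml2, a coactivator of the nuclear complex, by 1.40 (SE 0.134, adjusted p = 3.05e-05). Set beside the same 25.9% and 22.9% of all genes, Furin rose and Psen2 fell among the 10 cleavage genes, and the other 8 did not pass. Of the 13 trafficking genes, 4 rose and 1 fell. In the list of further Hes and Hey genes with Nrarp, 3 of 4 tested rose (Hes6, Hes7 and Nrarp), and whether they are targets of Notch in these cells was not tested. Nrarp had 0.909 to 3.32 CPM in co-cultured NFs, of which the median share of tumor RNA would supply 37.9% to 61.1%, and after subtraction of that share Nrarp missed the threshold (1.15, adjusted p = 0.238). Furin, Psen2, Hes6 and Nrarp were named after their values were seen.

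Between the subsets, 3 of 44 pathway genes passed, all lower in CD26+ NFs, where 3.6% of all genes were lower and 3.93% higher. They were Neurl1b (-1.55, SE 0.366, adjusted p = 0.0359), Rbpj (-0.63, SE 0.135, adjusted p = 0.0272) and Itch (-0.55, SE 0.139, adjusted p = 0.0442), the last of which encodes a ubiquitin ligase and missed the threshold after subtraction of the tumor RNA share with a value of similar size (-0.56, adjusted p = 0.0519). None of 46 passed in the interaction of subset and culture (edgeR, with 5 at an unadjusted p under 0.05, and 0 by DESeq2), where 0.376% of all genes did. In tumor cells, 7 of 40 rose in co-culture and 3 fell, where 10.8% of all genes rose and 11.5% fell. Of the genes named next, DESeq2 called Hes6, Furin and Dtx4, and it did not call Dll4, Nrarp or Adam10. Dll4 (1.42, SE 0.269, adjusted p = 0.00703), Hes6 (0.99, SE 0.181, adjusted p = 0.00586) and Furin (0.77, SE 0.106, adjusted p = 0.00168) led the genes that rose, and Dtx4 (-1.12, SE 0.108, adjusted p = 0.000356), Nrarp (-0.58, SE 0.150, adjusted p = 0.0268) and Adam10 (-0.37, SE 0.105, adjusted p = 0.0388) were those that fell. Between the lines, 3 of 40 were higher in 10-SJK-221 (Hey2 1.67, Pofut1 0.61 and Maml3 0.51) and 7 lower (with Dll4 -0.99, Neurl1a -0.87 and Dtx3 -0.74 leading), where 5.93% of all genes were higher and 8.54% lower. DESeq2 called 3 of these 10, Hey2 and Dtx3 among them.

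Between NFs and tumor cells grown alone, 12 of 47 pathway genes were higher in NFs and 14 in tumor cells, and the same numbers were found in co-culture. Of all genes tested, 28.4% were higher in NFs and 27.1% in tumor cells grown alone, and 27.7% and 24.2% in co-culture. Of the genes called, 2 higher in NFs (Dlk1 and Neurl1b) and 3 higher in tumor cells (Dll4, Mfng and Hey2) reached the level of the filter in 1 of the cell types only when grown alone, as did 3 (Dlk1, Neurl1b and Dtx1) and 1 (Mfng) in co-culture. Grown alone, NFs led with Dlk1 (8.19), Psen2 (2.90) and Neurl1b (2.59), and tumor cells had more Nrarp (31.2 and 44.1 CPM against 0.186 and 0.702 CPM), Dll4 (1.59 and 2.72 CPM) and Mfng (1.03 and 1.08 CPM), of which the last pair had 0 counts in NFs alone. In co-culture, NFs had more Dtx1 and Dlk1, both at 0 counts in co-cultured tumor cells, and more Neurl1b (4.28), and tumor cells had more Nrarp (-3.85), Mfng (-3.46) and Hey2 (-2.71). The response to culture differed between the cell types for 6 of 47 pathway genes tested, 3 in each direction, where 12% of all genes passed upward and 8.15% downward. Nrarp (2.70, adjusted p = 0.0276), Rbpj (2.18, adjusted p = 0.000677) and Notch4 (2.15, adjusted p = 0.00408) changed more upward in NFs, and Kat2b (-1.71, adjusted p = 0.005), Maml2 (-1.65, adjusted p = 0.00285) and Poglut1 (-1.30, adjusted p = 0.00802) more downward. After subtraction of the median share of the other cell type's RNA, Nrarp missed the threshold (1.83, adjusted p = 0.175) and the other 5 passed.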

How the data were processed

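RNA of 10 mouse libraries had been made into stranded mRNA libraries and sequenced, per the labels. Raw read counts per gene were deposited by the authors as 1 table without normalization. The submitters' processing notes name HISAT2 2.2.1 and GRCm38, while the counting program and its use of strand are not given in the sources used here. One item of the tumor genotype and the likeness result of Notch2 are not reported here. One row with an empty gene ID (0 counts) was left out. Exon lengths came from GENCODE M21, which lists 55226 of the 55486 gene IDs. Libraries held 14142334 to 18408940 counts, and intervals and floors (3 counts) cover counting error only.

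Counts were tested with edgeR 4.0.16 in R 4.3.3 (TMM scaling, filterByExpr, quasi-likelihood F test, two-sided, Benjamini-Hochberg adjustment over all genes tested, threshold 0.05). NF comparisons used 6 libraries, tumor comparisons 4 and comparisons between cell types all 10. SE were the absolute log2 fold change divided by the square root of F. The share of RNA from the other cell type was the median, over 10 markers, of the level relative to that cell type in the same gel. As alternatives, the tests were rerun with DESeq2 1.42.0, RLE scaling, no filter beyond 1 count, an added criterion of an absolute log2 fold change over 2, subtraction of that share, gel as a block, no line term, leaving out each gel and, added after values were seen, contrasts within 1 subset in a fit of the 6 NF libraries in 4 groups, and subtraction of the highest marker's share from NFs.

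Same-numbered libraries came from the same gel per the labels, so that the number pairs them. Their deviations from group means correlated at 0.119 (CD26- with CD26+ NFs), 0.118 (CD26- NFs with tumor cells) and 0.0706 (CD26+ NFs with tumor cells) over 17048 genes. The scripts were tested on simulated data. The 9 genes and all lists were chosen with earlier results of these data known. All 9 genes are named in every comparison, with those under the filter on low counts given as not tested, and of the other pathway genes up to 3 per direction with the largest absolute log2 fold change among those past the threshold, and the few named beyond this rule are given as such. For 8 of the 9, the 3 genes most like it were those with the highest Pearson r of log2(CPM + 1) over 10 libraries, among genes with a mean of at least 10 CPM.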

Additional observations from a re-analysis of the deposited data

Results flagged for a closer look

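The response to culture differed between groups of libraries, by a test of the difference itself, for 4 results. Notch3 rose less in CD26+ than in CD26- NFs (interaction -2.10 on the log2 scale, SE 0.366, adjusted p = 0.0272, edgeR), with 1 library of each subset grown alone, so that the spread comes from the co-cultures of gels 4 and 5. This call ended with no filter beyond 1 count (-2.14, adjusted p = 0.0947) and after subtraction of the other cell type's share (-2.07, adjusted p = 0.0965), and it passed with gel as a block (-2.08, adjusted p = 3.12e-08). The fit with gel as a block has only 1 residual degree of freedom. The other 3 results are differences between the responses of NFs and tumor cells. They were 2.75 for Notch3 (SE 0.482, adjusted p = 0.00602), 2.35 for Jag2 (SE 0.534, adjusted p = 0.0181) and 2.14 for Dll1 (SE 0.299, adjusted p = 0.00225). The values of Jag2 (1.82, adjusted p = 0.169) and Dll1 (0.77, adjusted p = 0.643) missed the threshold when the tumor RNA share by the highest marker, Krt19, was subtracted from NFs, a setting added after values were seen. All 4 NF libraries in co-culture were above both NF libraries grown alone for the 3 genes, while Notch3 in tumor cells was 1.04 times its level alone in line 13-MCB-17 and 0.34 times in line 10-SJK-221, on 11 to 29 counts. No group had 4 or more libraries, so single libraries that stand apart were not looked for.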

How the results depend on the processing

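No value of the 9 genes that had passed reversed its direction under the alternatives run. Counts of the 9 genes past the threshold (edgeR) moved as follows. Between the subsets, 2 became 1 with no filter beyond 1 count, 1 after subtraction of the other cell type's share, 0 after subtraction at the highest marker (added after values were seen), 0 with the added criterion of an absolute log2 fold change over 2, 3 with gel as a block and 0 to 4 when a gel was left out. In the interaction of subset and culture, 1 became 0 without the filter, 0 after subtraction and 3 with the block. In tumor cells, 2 became 0 with the fold change criterion and 0 without the line term. Between the lines, 0 became 2 without the filter. Between NFs and tumor cells grown alone, 7 became 5 with the fold change criterion and 5 to 6 when a gel was left out. In co-culture, 8 became 4 with the fold change criterion and 3 to 8 when a gel was left out. The 3 of the cell type by culture interaction became 1 after subtraction at the highest marker and 0 to 3 when a gel was left out. In NFs, the count of 6 for co-culture was 4 with the fold change criterion and ranged from 4 (without gel 5) to 7 (without gel 4). Of the fold changes of single genes among the 9, 39 values fell under the threshold and 12 passed it. The other 483 kept their side of it or, within a tumor line or culture, were not tested. Some values that passed in neither fit changed direction, such as Hey1 between the subsets (-0.19, from -0.57 to 0.10 over the alternatives). Of all genes, 1130 between the subsets became 192 (fold change criterion), 219 (subtraction at the highest marker), 977 (without gel 1) and 17 (without gel 5). The 7325 for co-culture in NFs became 2047 (criterion). The 61 of the subset interaction became 18 (no filter), 98 (DESeq2), 30 (subtraction) and 395 (block). The 2942 for co-culture in tumor cells became 1547 (DESeq2), 418 (criterion) and 0 (no line term), and the 1910 between lines 2917 (no filter), 941 (DESeq2) and 278 (criterion). Between NFs and tumor cells 9458 alone became 4899 (criterion), and 8839 in co-culture became 3999 (criterion), 3018 (without gel 4) and 2614 (without gel 5). The 3439 of the cell type interaction became 1629 (criterion) and 0 without gel 4 or 5, fits whose lone libraries are assumed to vary like the other groups. Where 0 of the 9 genes passed in an edgeR fit, 2 to 4 had an unadjusted p under 0.05. The cause of the other shifts was not tested.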

Other observations

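Among genes with a mean of at least 10 CPM, those whose pattern over the 10 libraries was most like that of a Notch gene were looked up for 8 of the 9 (Pearson r of log2(CPM + 1), a description over libraries that share gels and cell types). Heyl was most like Prokr2 (r = 0.996), Dlg2 (r = 0.991) and Klhl3 (r = 0.991). Prokr2, a prokineticin receptor, had 0.807 and 0.912 CPM in NFs alone, 58.8 to 139 CPM in co-cultured NFs and at most 0.114 CPM in tumor cells. Notch3 was most like Galnt18 (r = 0.994), Igfbp5 (r = 0.994) and Usp13 (r = 0.991). Igfbp5, which encodes a binding protein of insulin-like growth factors, had 51.7 and 279.6 CPM in NFs alone, 542 to 799 CPM in co-cultured NFs and at most 0.171 CPM in tumor cells. Dll1 was most like Gabre, Slbp and Fam83g (r = 0.992 to 0.995) and Jag2 most like Bcl6, Lcn2 and Lsm14b (r = 0.975 to 0.987), all of which were highest in tumor cells. Jag1 was most like Spidr (r = 0.952), Fosb (r = 0.947) and Tmem95 (r = 0.944). Fosb, an immediate-early gene, had 1218 to 1615 CPM in NFs and 1395 to 3838 CPM in tumor cells. The likest genes reached r = 0.939 for Notch1 (Dusp3, followed by Wnt11 and Stx6), r = 0.937 for Hes1 (Adpgk, followed by Ncln and Prr3) and r = 0.978 for Hey1 (Ndfip1, followed by Tmem267 and Nptn).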
